A study of Mus musculus with 66 samples.

Results

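Chromatin modifiers and remodelers were followed through 3 cultures of mouse small-intestinal organoids. The members were the transcripts whose gene symbol begins with Kdm, Kmt, Setd, Smarc or Arid, or with Kat, Brd or Chd and a digit, together with Ep300, Crebbp, Dnmt1, Dnmt3a, Tet3 and Uhrf1, while Kdm6a and Kdm6b were left out. These were 75 transcripts of 69 genes, out of 9481 transcripts of 8978 genes listed beside 92 spike-in RNAs. Of the 75, 73 had an estimated count above 0 in at least 4 of the 12 RNA libraries and were tested among 9288 transcripts. The other 2, Dnmt3a NM_153743.4 and Kat7 NM_177619.3, held next to no reads, whereas another transcript of the same gene was tested. Dnmt3b, Tet1 and Tet2, which the rule also names, were not analysed here.

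All organoids carried the Lgr5 GFPDTR/+ allele, a GFP and diphtheria toxin receptor cassette placed at the stem cell gene Lgr5. ENR is the conventional medium, with EGF, Noggin and the Wnt agonist R-spondin, and gives mixed organoids. CV is the same medium with 3 µM CHIR99021, a GSK3 inhibitor, and 1 mM valproic acid, which also inhibits histone deacetylases, and favours stem cells. EN is ENR medium without R-spondin and favours differentiated cells, and since CV organoids stayed in their medium longer than EN organoids, medium and time in it cannot be told apart. RNA and open chromatin (ATAC) were measured in 4 libraries per culture, and the histone marks H3K27ac, H3K4me3 and H3K27me3 in 3 libraries per culture each. Nothing in the labels ties libraries to separate cultures, so p-values measure only the spread between these libraries, which may be technical. Organoids are mixtures, and in bulk RNA fewer cells of a type and less RNA per cell cannot be told apart.

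Chromatin modifiers write, remove or read chemical marks on histones and DNA, and remodelers use ATP to slide, evict or exchange nucleosomes. Acetyltransferases such as Crebbp and Ep300 open chromatin at enhancers and promoters, BET proteins bind the acetylated histones, and the Kmt2 and Setd1 enzymes methylate H3K4 at active genes. Uhrf1 and Dnmt1 copy DNA methylation onto newly made strands during replication, whereas Tet3 oxidises methylated cytosine. In the intestinal crypt, cells leave the cycle as they move from the stem cell zone towards the villus, and many nuclear proteins of dividing cells are lost on the way.

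The promoter sequences of 6 starts named in the results below are given first. Whether sequence has a part in those results was not tested. Uhrf1, Dnmt1 and Kat2a were among the members that fell most in EN, Crebbp was among those that rose most, and starts inside Arid5b and Smarca2 were where histone marks moved. Each runs 5′ to 3′ on the gene's own strand, from 250 bases before to 50 bases after the start site, read from mm9. Capitals mark matches on either strand to the E2F motif (TTTCCCGC, TTTCGCGC, TTTGCCGC or TTTGGCGC) or the NF-Y motif CCAAT, with overlapping matches merged. The windows are chr17:56442494-56442793 (plus strand) for Uhrf1, chr9:20757268-20757567 (minus) for Dnmt1, chr11:100573730-100574029 (minus) for Kat2a, chr16:4213355-4213654 (minus) for Crebbp, chr10:67599325-67599624 (minus) for the start inside Arid5b and chr19:26822643-26822942 (plus) for the start inside Smarca2.
Uhrf1: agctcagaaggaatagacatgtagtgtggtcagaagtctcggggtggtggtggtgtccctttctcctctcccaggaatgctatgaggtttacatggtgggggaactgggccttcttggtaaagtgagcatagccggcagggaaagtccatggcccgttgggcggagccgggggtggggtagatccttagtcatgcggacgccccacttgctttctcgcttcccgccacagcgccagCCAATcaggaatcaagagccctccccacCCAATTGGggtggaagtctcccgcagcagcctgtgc
Dnmt1: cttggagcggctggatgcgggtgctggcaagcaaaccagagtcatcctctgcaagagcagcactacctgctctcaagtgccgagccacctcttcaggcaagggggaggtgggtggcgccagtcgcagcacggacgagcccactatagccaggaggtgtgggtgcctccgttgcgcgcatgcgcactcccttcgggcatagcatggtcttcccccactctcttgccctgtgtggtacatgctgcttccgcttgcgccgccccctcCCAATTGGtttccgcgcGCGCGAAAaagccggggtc
Kat2a: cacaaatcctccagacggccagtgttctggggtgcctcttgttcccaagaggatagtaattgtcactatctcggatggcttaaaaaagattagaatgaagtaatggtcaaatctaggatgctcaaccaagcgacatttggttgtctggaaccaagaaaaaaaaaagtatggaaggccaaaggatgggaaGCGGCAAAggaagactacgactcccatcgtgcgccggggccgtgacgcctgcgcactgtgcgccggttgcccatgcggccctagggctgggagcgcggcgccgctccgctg
Crebbp: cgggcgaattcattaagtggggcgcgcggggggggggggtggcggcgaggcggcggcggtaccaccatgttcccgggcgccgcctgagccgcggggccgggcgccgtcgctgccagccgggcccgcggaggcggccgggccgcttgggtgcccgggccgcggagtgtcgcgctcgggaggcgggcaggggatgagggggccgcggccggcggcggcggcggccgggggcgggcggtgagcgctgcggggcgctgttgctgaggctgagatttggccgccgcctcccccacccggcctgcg
Arid5b, inner start: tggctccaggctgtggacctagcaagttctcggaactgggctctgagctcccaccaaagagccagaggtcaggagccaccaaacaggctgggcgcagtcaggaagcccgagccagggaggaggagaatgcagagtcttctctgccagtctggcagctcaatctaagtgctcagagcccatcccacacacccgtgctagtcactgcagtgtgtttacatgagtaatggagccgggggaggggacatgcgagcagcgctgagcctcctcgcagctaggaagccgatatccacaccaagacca
Smarca2, inner start: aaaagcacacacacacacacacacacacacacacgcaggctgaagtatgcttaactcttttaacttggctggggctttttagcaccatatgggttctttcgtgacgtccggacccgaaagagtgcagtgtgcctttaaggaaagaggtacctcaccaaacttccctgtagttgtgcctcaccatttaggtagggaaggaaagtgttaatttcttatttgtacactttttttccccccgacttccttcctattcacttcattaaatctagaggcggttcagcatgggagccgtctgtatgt

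The Uhrf1 window held 3 NF-Y matches, and Dnmt1 held 1 E2F match and 2 NF-Y matches, the overlapping pair in CCAATTGG being present in both genes. Kat2a held 1 E2F match, and Crebbp and both inner starts held neither motif. Over the 69 member genes, 4 promoters (Brd7, Dnmt1, Kat2a and Smarcd1) held the E2F motif, which was 5.8% against 2.8% of 22359 promoters of the same length. By RNA call from CV to EN, these were 0 of 40 genes that rose, 3 of 22 that fell and 1 of 7 that were not called. Here and for promoters below, calls are per gene, with the transcripts of a gene summed after the data were seen. The split of the motif by call over all genes was not computed, and with 4 promoters no link to direction is drawn. The NF-Y motif was in 21 member promoters (30.4%, against 37.8% of all), and the HNF4 motif CAAAGTCCA was in 0 (0.461% of all). These are matches to letters, not bound sites.

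Library totals ran from 5630951 to 8859744 estimated counts, with overlapping ranges in the 3 cultures, and spike-ins took 0.837 to 1.36% of them. Marker lists moved with the media: 5 of 5 stem cell transcripts were lower in EN than in CV, 6 of 6 enterocyte transcripts were higher, and 16 of 17 proliferation transcripts were lower. The proliferation transcripts had a summed level, in counts-per-million (CPM) of the library total after TMM scaling, of 1935 to 1992 in CV, 2961 to 3093 CPM in ENR and 277 to 318 CPM in EN. CV and ENR differed in stem cell transcripts too, 4 of 5 being lower in CV, with the stem cell marker Olfm4 at mean CPM of 10.9 and 1229. Secretory lists moved too: 4 of 4 goblet, 3 of 3 enteroendocrine and 3 of 3 tuft cell transcripts were higher in EN than in CV (median log2 fold changes 5.67, 6.34 and 4.68) and as many were lower in CV than in ENR (-3.07, -4.21 and -3.68), while of 4 Paneth cell transcripts 1 was higher in EN than in CV and 3 were lower. Of 4 transcripts of epithelial markers, 3 were lower in EN than in CV, but their sum was high in all cultures (4674 to 6812 CPM). Markers of cells outside the epithelium had 6 tested transcripts with a sum of 4.11 to 6.33 CPM in CV and 23.9 to 30.1 CPM in EN, of which Ptprc and Vim rose while the collagen gene Col1a2 averaged at most 0.0789 CPM. The part of these lists in the results below was not tested.

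On the transcripts-per-million scale (TPM, which corrects for length), the chromatin remodeler ATPase Smarca5 was the highest member in CV with a mean of 127 TPM and in ENR with 116 TPM, and Setd3, an actin histidine methyltransferase, came next with 96.0 and 91.3 TPM. In EN the order was turned, with Setd3 at 90.6 TPM and Smarca5 at 56.0 TPM. Uhrf1 ranked number 4 in ENR with a mean of 62.6 TPM and had 0.663 TPM in EN, where Chd5 alone was lower, at 0.192 TPM.

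The first question was how the chromatin machinery differed between EN and CV organoids. By the markers above, CV was richer in stem cell transcripts than EN but not than ENR. From CV to EN, 40 of the 73 tested member transcripts rose and 22 fell (edgeR quasi-likelihood test on counts, Benjamini-Hochberg adjusted p under 0.01), whereas over all 9288 tested transcripts 35.2% rose and 41.2% fell. The median log2 fold change was 0.31 over the members and -0.08 over all transcripts. In 60 of the 73, the 4 EN libraries did not overlap the 4 CV libraries in CPM, as was so for 76.5% of all tested transcripts. These calls are relative to the bulk of transcripts (TMM scaling), and the scale matters: with libraries scaled to their spike-ins 9 members rose and 26 fell while the median of all transcripts was -0.49, on log2(TPM + 1) 24 rose and 28 fell with that median at -0.34, and on the authors' mRNA copies 44 rose and 6 fell with it at 0.69. Of all transcripts, 15.9% rose and 46.2% fell with spike-ins, where members thus held no larger share of rises. The shares over all transcripts were 24.4% and 53.6% on log2(TPM + 1), and 46.6% and 13.4% on mRNA copies. Set against the median of all transcripts under each of these scalings, the 40 members that rose stayed above it on all 4 scales and 21 of the 22 that fell stayed below it, the exception being Chd5 on the TPM scale. A change of scaling shifts all transcripts nearly together. Staying on a side of the median was thus largely fixed in advance, here and where it is given by role below. It is no support for the calls. Directions below are on the TMM scale.

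**Figure D1:**
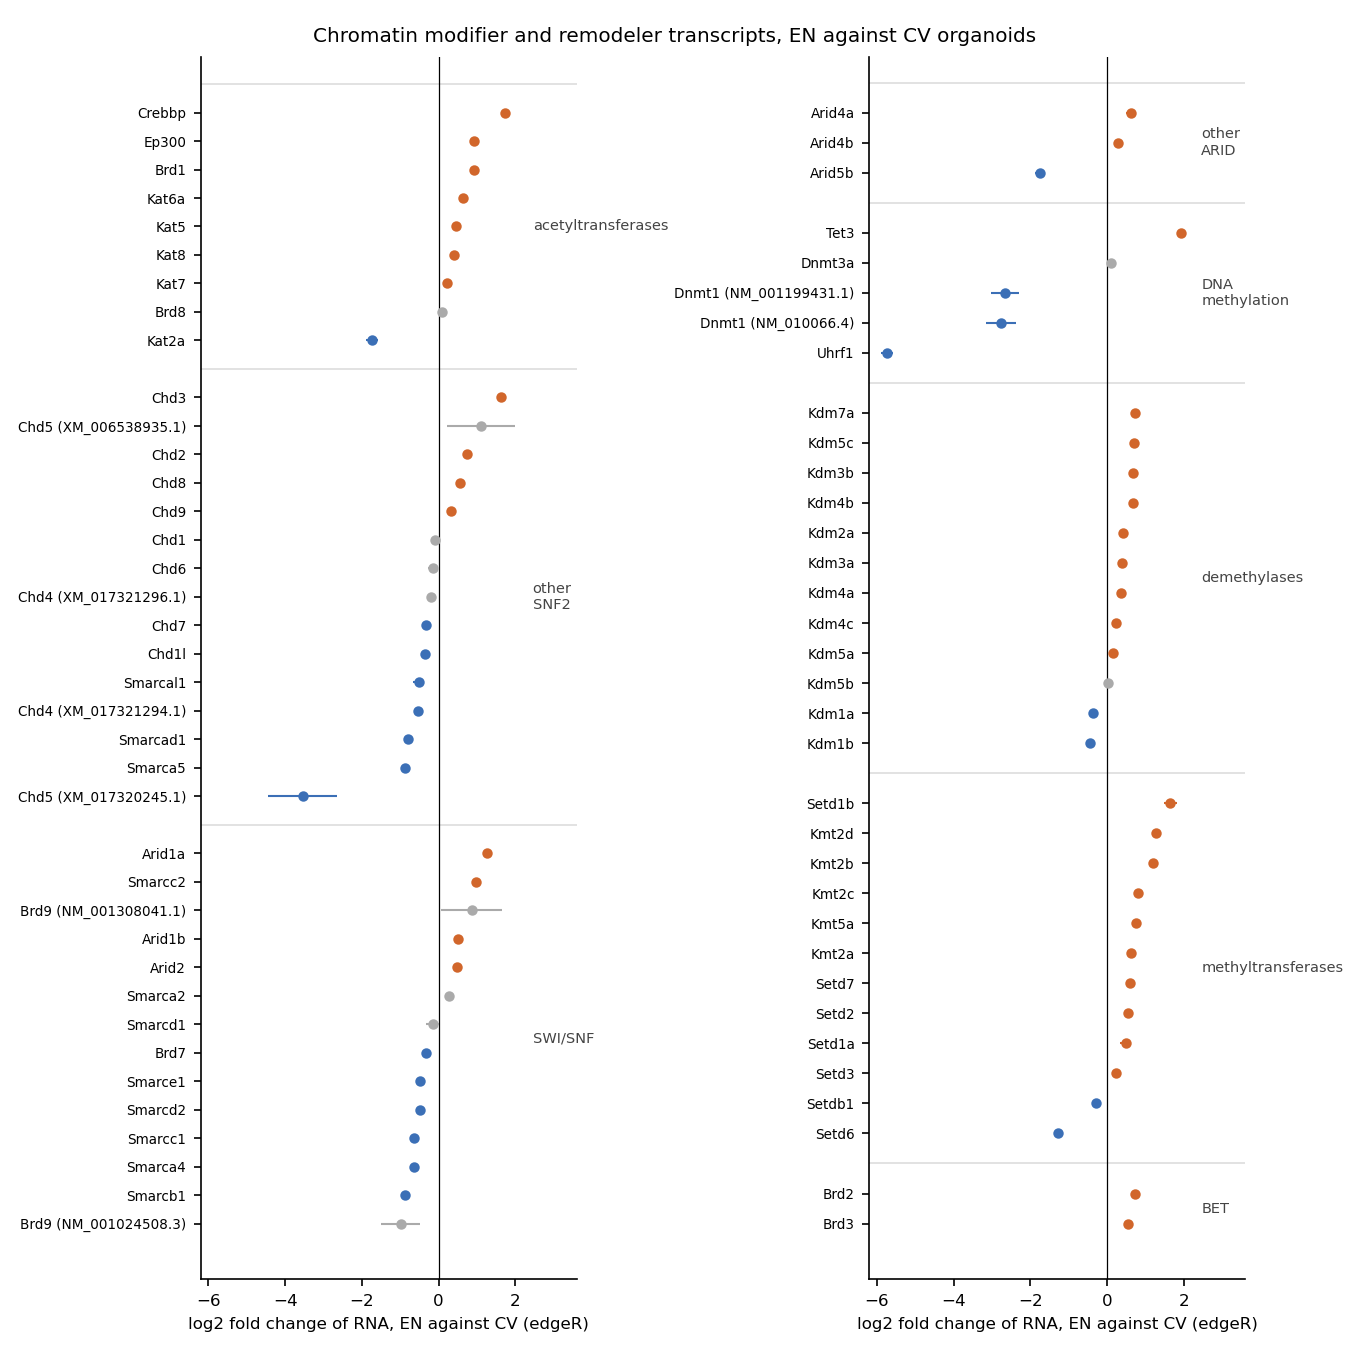
Log2 fold change from CV to EN (x axis) of 72 of the 73 tested member transcripts (rows, grouped by role), with bars of 1 standard error from edgeR, TMM scale. Orange points rose (39), blue points fell (22) and grey points were not called; on the spike-in scale 9 of the 39 were still called higher, and on mRNA copies 6 of the 22 were still called lower.

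Of the 5 tested transcripts of the DNA methylation group, Uhrf1 and both Dnmt1 transcripts fell, Tet3 rose and Dnmt3a was not called, and the 4 calls kept their direction and were called on the spike-in, TPM and mRNA copy scales too. Uhrf1, which recruits Dnmt1 to hemimethylated DNA, stood at 80.7, 87.0, 88.8 and 99.0 CPM in CV, at 135, 149, 141 and 153 in ENR, and at 1.21, 2.78, 0.714 and 2.16 in EN. The 3 cultures did not overlap, with ENR highest and EN nearly empty. EN was 53.0-fold below CV (log2 fold change -5.73 ± 0.16, SE, edgeR adjusted p = 2.93e-14) and further below ENR (-6.43 ± 0.15).

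Dnmt1, the maintenance methyltransferase, was listed with 2 transcripts, and the estimate moved reads between them: in EN, NM_001199431.1 took all of the Dnmt1 reads in library 1 and none in library 2. The sum over both, chosen after the data were seen, was 94.3, 90.7, 96.5 and 112 CPM in CV, 182, 178, 177 and 185 in ENR, and 16.6, 16.9, 10.9 and 15.3 in EN. The summed level did not overlap between any 2 cultures and was 6.58-fold lower in EN than in CV (log2 fold change -2.72 ± 0.09, edgeR adjusted p = 1.70e-23). From ENR to EN the sum fell by 3.59 on the log2 scale. Proliferation transcripts, at a median log2 fold change of -4.31 from CV to EN, moved with Uhrf1 and Dnmt1, and their part in it was not tested.

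Tet3, which oxidises 5-methylcytosine, went the opposite way, with 23.6, 19.0, 22.0 and 24.1 CPM in CV, 43.4, 44.7, 45.1 and 50.1 in ENR, and 84.3, 88.0, 81.5 and 82.8 in EN. Its cultures were fully apart in the order CV, ENR, EN. The level was 3.79-fold higher in EN than in CV (log2 fold change 1.92 ± 0.07, edgeR adjusted p = 9.96e-13). The de novo methyltransferase Dnmt3a lay at 36.3, 37.5, 36.5 and 38.2 CPM in CV, 54.7, 46.6, 52.5 and 55.1 in ENR and 42.1, 39.4, 42.3 and 34.6 in EN. ENR was above both other cultures, which overlapped, and the change from CV to EN (0.09 ± 0.07) was not called (edgeR adjusted p = 0.26).

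**Figure D2:**
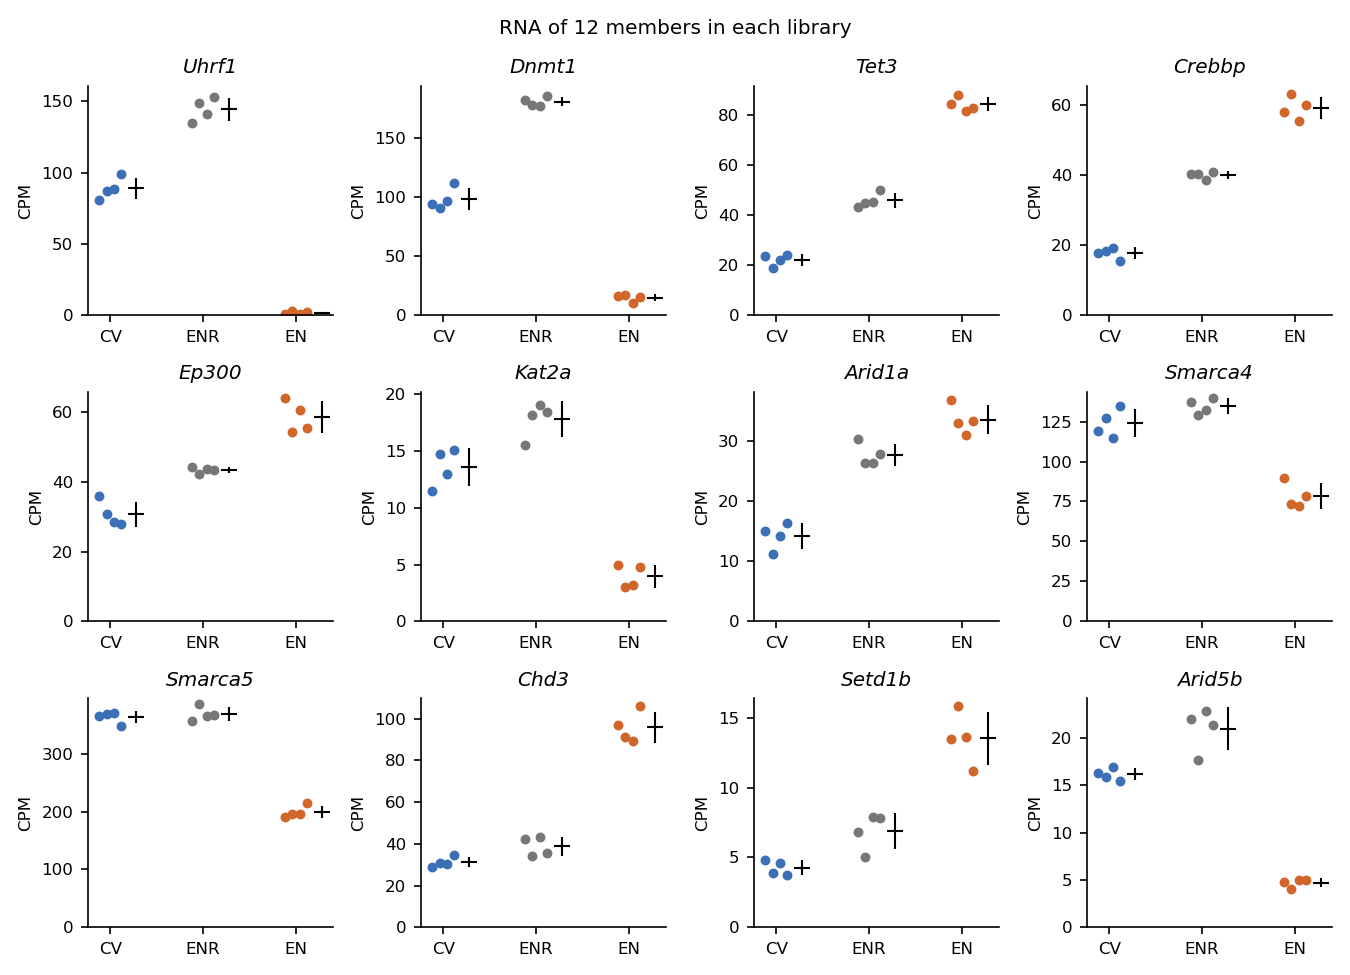
CPM (y axis, TMM-scaled) of 12 member genes in each RNA library (points) of CV, ENR and EN, with the mean and SD of each culture as crosses; Dnmt1 is the sum of 2 transcripts. Uhrf1, Dnmt1, Kat2a, Arid5b, Smarca4 and Smarca5 were lowest in EN, and Tet3, Crebbp, Ep300, Chd3, Setd1b and Arid1a were lowest in CV on this scale, whereas on mRNA copies Smarca4 was higher in EN than in CV by 0.10 (log2).

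Among the histone acetyltransferases and their partners, 7 of 9 tested transcripts rose from CV to EN and Kat2a fell. The 7 stayed above the median transcript on every scale, although only 5 kept a positive sign with spike-in scaling. Crebbp, a coactivator that acetylates H3K27 at enhancers, stood at 17.9, 18.3, 19.2 and 15.4 CPM in CV, at 40.2, 40.1, 38.4 and 40.9 in ENR and at 57.9, 62.9, 55.3 and 60.0 in EN. Its 3 cultures were apart, EN being 3.33-fold above CV (log2 fold change 1.74 ± 0.07, edgeR adjusted p = 2.39e-12). The close relative Ep300 had 35.8, 30.8, 28.4 and 28 CPM in CV, 44.2, 42.1, 43.7 and 43.4 in ENR and 63.9, 54.2, 60.6 and 55.4 in EN. Ep300 followed the same order with a smaller step, 1.91-fold from CV to EN (0.93 ± 0.08, edgeR adjusted p = 2.02e-08).

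Kat2a, the Gcn5 subunit of the SAGA and ATAC coactivator complexes, stood at 11.5, 14.7, 13.0 and 15.1 CPM in CV, at 15.5, 18.2, 19.1 and 18.4 in ENR and at 4.96, 3.00, 3.21 and 4.75 in EN. All EN libraries lay below every library of the other cultures. The fall from CV was 3.31-fold (log2 fold change -1.73 ± 0.16, edgeR adjusted p = 7.67e-08). Of the MYST acetyltransferases, Kat6a rose by 0.64, Kat5 by 0.44, Kat8 by 0.40 and Kat7 by 0.22 in log2 units (0.22, 0.02, -0.02 and -0.20 with spike-in scaling), and so did the Kat7 partner Brd1 (0.92). Brd8, a subunit of the Kat5 complex, differed by 0.10 and was not called.

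Brd2 and Brd3, BET readers of acetylated histones, were higher in EN than in CV, and both kept a positive sign on the spike-in scale without passing the test there. Brd2 stood at 81.5, 78.9, 79.0 and 81.4 CPM in CV, at 140, 123, 137 and 126 in ENR and at 140, 124, 135 and 128 in EN. CV lay apart below the other cultures, which overlapped throughout: the log2 fold change was 0.72 ± 0.05 from CV to EN (edgeR adjusted p = 3.25e-09) and 0.01 ± 0.05 from ENR to EN. Brd3 showed the same shape, with 20.3, 17.6, 17.1 and 18.6 CPM in CV, 29.2, 28.8, 30.2 and 32.7 in ENR and 28.8, 25.9, 26.2 and 26.3 in EN. Brd3 was 0.55 ± 0.08 higher in EN than in CV on the log2 scale.

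Of 12 tested Kmt and Setd transcripts, 10 rose from CV to EN and 2 fell. Most of these encode lysine methyltransferases of histones, but among the 10 is Setd3, whose substrate is actin. The 10 were above the median of all transcripts on every scale, and 9 kept a positive sign with spike-ins and with TPM. Setd1b, an H3K4 methyltransferase, stood at 4.85, 3.87, 4.64 and 3.74 CPM in CV, at 6.79, 5.07, 7.90 and 7.80 in ENR and at 13.5, 15.8, 13.6 and 11.2 in EN. EN was above the rest in all libraries and 3.15-fold above CV (log2 fold change 1.65 ± 0.17, edgeR adjusted p = 1.88e-07). Kmt2d, which monomethylates H3K4 at enhancers, had 49.6, 45.2, 45.9 and 50.4 CPM in CV, 75.5, 68.6, 68.2 and 72.6 in ENR and 120, 124, 108 and 110 in EN. It rose by 1.27 ± 0.06 in log2 units from CV to EN (edgeR adjusted p = 1.31e-11), again with the 3 cultures apart.

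Kmt2b, an H3K4 methyltransferase of promoters, went from 16, 16.7, 15.8 and 16 CPM in CV through 30.7, 27.5, 29.9 and 28.9 in ENR to 41.1, 36.4, 37.6 and 31.8 in EN. Its relative Kmt2a moved less, with 33.3, 28.4, 30.0 and 28.9 CPM in CV, 38.4, 36.5, 37.8 and 43.7 in ENR and 50.5, 46.9, 48.0 and 40.5 in EN. EN was above CV in every library for both genes (log2 fold changes 1.19 ± 0.08 and 0.62 ± 0.08), while Kmt2a in ENR and EN overlapped. Setd2, which trimethylates H3K36, stood at 46.4, 48.9, 47.1 and 48.2 CPM in CV, 71.3, 70.4, 68.2 and 66.2 in ENR and 67.9, 74.9, 63.9 and 68.5 in EN. Setd2 was low in CV alone (0.53 ± 0.05 from CV to EN, edgeR adjusted p = 1.81e-07; -0.01 ± 0.05 from ENR to EN).

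The Kmt and Setd genes that fell were Setd6 and Setdb1. Setd6, which methylates the NF-κB subunit RelA, had 23.6, 20.7, 21.2 and 22.3 CPM in CV, 17.4, 19.8, 17.5 and 18.8 in ENR and 10.6, 8.56, 7.67 and 8.78 in EN. EN was lowest and CV highest without overlap (log2 fold change from CV to EN -1.29 ± 0.10, edgeR adjusted p = 1.20e-08). Setdb1, an H3K9 methyltransferase that silences retroelements, stood at 48.0, 49.5, 48.9 and 52.5 CPM in CV, at 80.0, 65.0, 76.2 and 71.0 in ENR and at 41.1, 39.4, 43.0 and 38.7 in EN. ENR was far above the others, and the smaller fall from CV to EN (-0.29 ± 0.07, edgeR adjusted p = 9.68e-04) became a positive 0.48 on mRNA copies.

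Of the 12 histone demethylases tested, 9 rose from CV to EN, 2 fell and Kdm5b was not called. All 9 stayed above the median transcript on each scale, but only 5 kept a positive sign with spike-in scaling, where the 9 did not pass the test. Kdm7a, a demethylase of H3K9 and H3K27, had 70.6, 68.5, 72.6 and 68.1 CPM in CV, 67.1, 67.6, 63.5 and 70.3 in ENR and 107, 114, 117 and 121 in EN. CV and ENR overlapped and EN was above both, by 0.72 ± 0.05 over CV and 0.77 ± 0.05 over ENR in log2 units (edgeR adjusted p = 1.34e-09 and 6.79e-10). Kdm5c, which removes H3K4 methylation, rose from 84.4, 84.0, 90.5 and 93.7 CPM in CV to 116, 118, 131 and 120 in ENR and 159, 138, 131 and 141 in EN. CV was apart below the rest and ENR and EN met at 131 CPM, the rise from CV to EN being 0.70 ± 0.06 in log2 units.

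Kdm5b, of the same H3K4 demethylase family, stood at 105, 108, 110 and 111 CPM in CV, at 87.1, 81.3, 88.1 and 78.5 in ENR and at 107, 110, 109 and 118 in EN. ENR was below both other cultures, which overlapped (0.03 ± 0.05 from CV to EN, edgeR adjusted p = 0.557). Kdm3b, an H3K9 demethylase, had 30.6, 30.6, 25.1 and 29.6 CPM in CV, 52.9, 48.3, 51.9 and 57.3 in ENR and 48.2, 46.7, 42.5 and 47.5 in EN. Kdm3b was lowest in CV without overlap and 0.68 ± 0.08 higher in EN.

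The flavin-dependent demethylases fell. Kdm1a (LSD1), which strips H3K4 methylation in CoREST and NuRD complexes, had 92.4, 98.0, 101 and 95.4 CPM in CV, 107, 104, 104 and 98.3 in ENR and 72.9, 80.3, 72.2 and 74.1 in EN. Kdm1b (LSD2) had 53.9, 54.9, 62.7 and 58.8 CPM in CV, 49.7, 49.7, 56.3 and 51.6 in ENR and 38.5, 42.0, 40.8 and 48.1 in EN. EN was below every library of the other cultures for both genes, with a log2 fold change from CV of -0.37 for Kdm1a (edgeR adjusted p = 2.68e-06) and -0.44 for Kdm1b (edgeR adjusted p = 5.43e-05), but on mRNA copies both differences were positive (0.43 and 0.31).

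Of 14 tested transcripts of the SWI/SNF (BAF) remodeling complexes, 4 rose from CV to EN, 6 fell and 4 were not called. Rises were 28.6% and falls 42.9%, near the 35.2% and 41.2% of all tested transcripts. The 4 stayed above and the 6 below the median transcript on all scales, but on mRNA copies only 1 of the 6 had a negative sign. Arid1a, the DNA-binding subunit of canonical BAF, stood at 15.0, 11.2, 14.2 and 16.3 CPM in CV, at 30.3, 26.3, 26.4 and 27.9 in ENR and at 36.9, 33.0, 31.0 and 33.4 in EN. Its cultures did not overlap, and EN was 2.37-fold above CV (log2 fold change 1.25 ± 0.10, edgeR adjusted p = 1.60e-08). Smarcc2, a core scaffold subunit, had 26.7, 26.0, 23.7 and 24.9 CPM in CV, 43.5, 37.5, 40.1 and 39.9 in ENR and 47.8, 51.8, 46.9 and 53.1 in EN. Smarcc2 kept the same order and rose by 0.98 ± 0.07 in log2 units. Arid1b and Arid2, which define canonical BAF and PBAF, also rose, by 0.51 and 0.48.

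The ATPase Smarca4 (BRG1) stood at 119, 127, 115 and 135 CPM in CV, at 137, 129, 132 and 140 in ENR and at 89.9, 73.7, 71.9 and 78.6 in EN. CV and ENR overlapped and EN lay below both, 1.57-fold under CV (log2 fold change -0.65 ± 0.07, edgeR adjusted p = 2.55e-07; 0.10 on mRNA copies). Smarcb1, a core subunit, had 35.4, 43.0, 35.7 and 36.1 CPM in CV, 50.6, 56.6, 54.7 and 50.1 in ENR and 22.6, 21.8, 17.7 and 19.0 in EN. It was apart in all 3 cultures, with a log2 fold change from CV to EN of -0.89 ± 0.09 (edgeR adjusted p = 2.31e-07). Smarcc1 (-0.64), Smarcd2 (-0.48), Smarce1 (-0.48) and Brd7 (-0.33) also fell in EN (0.08, 0.30, 0.28 and 0.46 on mRNA copies), and the alternative ATPase Smarca2 did not move with them. Smarca2 had 25.5, 20.4, 23.3 and 26.7 CPM in CV, 30.6, 30.8, 31.9 and 31.7 in ENR and 32.0, 29.5, 23.5 and 29.2 in EN, EN library 3 lying among the CV values. Its change from CV to EN (0.26 ± 0.10) was not called (edgeR adjusted p = 0.0251), but was called at 0.34 without EN library 3.

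Outside SWI/SNF, the CHD proteins and the ISWI and related ATPases gave 4 transcripts that rose from CV to EN, 7 that fell and 4 that were not called. These were 26.7% rises and 46.7% falls, again near the 35.2% and 41.2% of all tested transcripts. Of the 7 that fell, 6 stayed below the median transcript on all scales, and 3 kept a negative sign on mRNA copies. Chd3, a helicase of the NuRD complex, stood at 29.0, 30.7, 30.5 and 34.7 CPM in CV, at 42.4, 34.4, 43.1 and 35.7 in ENR and at 96.8, 91.0, 89.4 and 106 in EN. EN was far above both, 3.07-fold over CV (log2 fold change 1.62 ± 0.08, edgeR adjusted p = 4.89e-11), while CV and ENR overlapped slightly. Its partner paralog Chd4, summed over 2 transcripts after the data were seen, had 244, 234, 234 and 249 CPM in CV, 220, 232, 225 and 231 in ENR and 204, 180, 164 and 198 in EN. Chd4 was lowest in EN without overlap (-0.36, edgeR adjusted p = 1.91e-07), though on mRNA copies its transcripts had values of 0.22 and 0.56. Chd2, which opens chromatin at active genes, had 69.0, 66.1, 61.5 and 61.8 CPM in CV, 102, 100, 91.1 and 96.3 in ENR and 113, 113, 99.5 and 107 in EN, and rose by 0.74 ± 0.06 from CV to EN.

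Smarca5 (SNF2H), the ATPase of the ISWI complexes that space nucleosomes, stood at 364, 369, 370 and 348 CPM in CV, at 357, 386, 365 and 366 in ENR and at 190, 195, 196 and 214 in EN. CV and ENR overlapped, and EN was 1.83-fold below CV (log2 fold change -0.87 ± 0.04, edgeR adjusted p = 2.52e-11). Smarcad1, a remodeler that acts behind replication forks, fell by 0.80. Chd5 XM_017320245.1 was called lower in EN than in CV, but sat at the limit of detection, where 3 counts correspond to 0.361 to 0.642 CPM. This transcript had 1.48, 1.47, 2.39 and 1.20 CPM in CV, was at 0 in 3 ENR libraries and 0.503 CPM in the other, and was at 0 in 3 EN libraries and 0.642 CPM in the other, so no fold change is given.

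Of the 3 transcripts of the remaining ARID genes, 2 rose and 1 fell from CV to EN. Arid5b, a partner of the H3K9 demethylase Phf2, stood at 16.3, 15.9, 17.0 and 15.5 CPM in CV, at 22.0, 17.7, 22.9 and 21.4 in ENR and at 4.82, 4.07, 4.99 and 5.04 in EN. The cultures were apart, and EN was 3.38-fold below CV (log2 fold change -1.76 ± 0.12, edgeR adjusted p = 1.03e-09). Arid4a, a subunit of Sin3 deacetylase complexes, had 21.6, 23.0, 24.4 and 23.5 CPM in CV, 38.8, 36.8, 34.8 and 35.9 in ENR and 37.3, 38.3, 25.3 and 39.4 in EN. It rose by 0.61 ± 0.11 (edgeR adjusted p = 1.20e-04), with EN library 3 just above the CV range. Arid4b, of the same complexes, had 43.7, 39.0, 40.6 and 37.1 CPM in CV, 44.6, 43.7, 49.5 and 43.8 in ENR and 48.0, 51.8, 47.8 and 47.8 in EN. Its small rise of 0.28 ± 0.06 turned to -0.13 with spike-in scaling and to -0.03 on the TPM scale.

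The comparisons with ENR set each of the other 2 media against the conventional culture. Both share the ENR libraries with each other and the EN or CV libraries with the comparison above, so they are given side by side. From ENR to CV, 2 members rose and 48 fell (edgeR), against 30.2% and 29.8% of all transcripts, and the median log2 fold change was -0.46 over members and -0.01 over all transcripts. All 48 kept a negative sign with spike-in scaling and with TPM, and 44 did on mRNA copies, where the 48 did not pass limma's test. The falls ran across roles, with 10 of 14 SWI/SNF transcripts, 8 of 9 acetyltransferases, 9 of 12 Kmt and Setd transcripts and 6 of 12 demethylases. The 2 that rose were Kdm5b (0.38 ± 0.05, edgeR adjusted p = 4.02e-06) and Chd5 XM_017320245.1.

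The log2 fold changes from ENR to CV included Crebbp (-1.17 ± 0.07, edgeR adjusted p = 1.34e-09), Tet3 (-1.05 ± 0.07, edgeR adjusted p = 7.74e-09), Chd6 (-1.05 ± 0.10, edgeR adjusted p = 2.47e-07), Arid1a (-0.97), the Dnmt1 sum (-0.87), Kmt2b (-0.86), Kdm3b (-0.86), Brd3 (-0.72), Brd2 (-0.71) and Uhrf1 (-0.70). Proliferation transcripts summed to less in CV than in ENR, as given above, and were not tested for a part in this. The lower Chd3 in CV (-0.32) lost its call without CV library 1, 2 or 3 or ENR library 1 or 3, with values from -0.31 to -0.27. Smarca4 (-0.12), Smarca5 (-0.02) and Kdm7a (0.06) were not called.

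From ENR to EN, 17 members rose and 29 fell (edgeR), against 35.5% and 37.2% of all transcripts, with a median of -0.12 over members and -0.01 over all. All 17 lay above and all 29 below the median transcript on every scale, but with spike-ins 7 of the 17 kept a positive sign and on mRNA copies 11 of the 29 kept a negative one. Chd3 (1.30 ± 0.08), Setd1b (0.96 ± 0.16), Tet3 (0.87 ± 0.07), Kdm7a (0.77 ± 0.05) and Kmt2d (0.70 ± 0.06) rose, and Crebbp (0.56) and Ep300 (0.44) rose less. Uhrf1 (-6.43), the Dnmt1 sum (-3.59), Arid5b (-2.14 ± 0.11), Kat2a (-2.12 ± 0.16), Smarcb1 (-1.38 ± 0.09), Setd6 (-1.03 ± 0.11), Smarca5 (-0.89 ± 0.04), Setdb1 (-0.85 ± 0.07) and Smarca4 (-0.77 ± 0.07) fell on the log2 scale. On mRNA copies the values for Smarca5, Setdb1 and Smarca4 were 0.01, 0.16 and 0.21. By role, SWI/SNF gave 1 rise and 7 falls, the CHD and ISWI group 1 and 7, demethylases 6 and 4 and the Kmt and Setd genes 5 and 2.

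Many members are paralogs that take the same place in a complex, and the share of each in the summed TPM of its set does not depend on how libraries are scaled. Of 16 sets, 13 held at least 1 paralog whose share in the 4 EN libraries did not overlap that in the 4 CV libraries. Each such share had a two-sided exact permutation p of 0.0286, the smallest that 4 against 4 libraries allow, before any adjustment for 22 shares in 3 comparisons. The corresponding numbers of sets were 11 for ENR against EN and 11 for ENR against CV. Among all tested single transcripts, 76.5% did not overlap in CPM between EN and CV, 74.2% between EN and ENR and 65.7% between CV and ENR. The rate for other gene sets was not computed, and a set of 3 genes had more than 1 chance to count. These counts are therefore not shown to be a trait of paralogs.

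The BAF scaffold showed the widest difference between CV and EN of the 22 shares. Smarcc1 made up 49.5, 50.1, 52.3 and 53.0% of Smarcc1 plus Smarcc2 in CV, 48.9, 50.6, 48.3 and 48.9% in ENR and 26.9, 22.0, 28.7 and 24.4% in EN. CV and ENR overlapped at a nearly even split and EN lay apart, 25.8 points below CV (means 51.2 ± 1.70% and 25.5 ± 2.92%, SD, n = 4). Smarca4 was 84.6 ± 1.61% of the ATPase pair Smarca4 and Smarca2 in CV, 82.0 ± 0.536% in ENR and 74.5 ± 1.59% in EN, so that Smarca4 was the larger part in every library. Arid1a took 38.5 ± 2.57% of Arid1a plus Arid1b in CV, 47.3 ± 1.56% in ENR and 51.1 ± 1.42% in EN, with the 3 cultures apart.

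In NuRD, Chd4 was 90.1, 89.2, 89.2 and 88.6% of Chd4 plus Chd3 in CV, 84.8, 87.9, 84.9 and 87.5% in ENR and 69.6, 68.2, 66.5 and 67.0% in EN. Chd4 remained the larger part, but its share differed by -21.5 points between EN and CV. Ep300 was 59.7 ± 3.09% of Ep300 plus Crebbp in CV, 48.2 ± 0.923% in ENR and 45.9 ± 3.09% in EN, so Ep300 was the larger part in CV only, and EN and ENR overlapped (exact permutation p = 0.314). Setd1a was 73.1, 75.4, 64.4 and 76.8% of Setd1a plus Setd1b in CV, 69.1, 77.3, 66.0 and 71.0% in ENR and 56.2, 52.2, 49.8 and 58.5% in EN. Here too CV and ENR overlapped and EN was lower, with a difference from CV of -18.3 points.

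For other pairs the CV share was the farthest from ENR. Chd1 was 61.7 ± 1.35% of Chd1 plus Chd2 in CV, 51.0 ± 1.27% in ENR and 47.3 ± 0.584% in EN, and Kmt2a was 50.6 ± 2.10%, 42.3 ± 2.11% and 41.0 ± 0.504% of Kmt2a plus Kmt2b. Kdm4a stood out in ENR, with 54.1 ± 1.36% of the Kdm4a, Kdm4b and Kdm4c total against 40.5 ± 2.25% in CV and 39.9 ± 1.96% in EN. Kdm5b was 36.4 ± 0.418% of the Kdm5a, Kdm5b and Kdm5c total in CV, 24.0 ± 0.902% in ENR and 28.9 ± 1.51% in EN. For Brd7 against Brd9, Kdm1a against Kdm1b and Smarcd1 against Smarcd2, CV and EN overlapped.

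**Figure D3:**
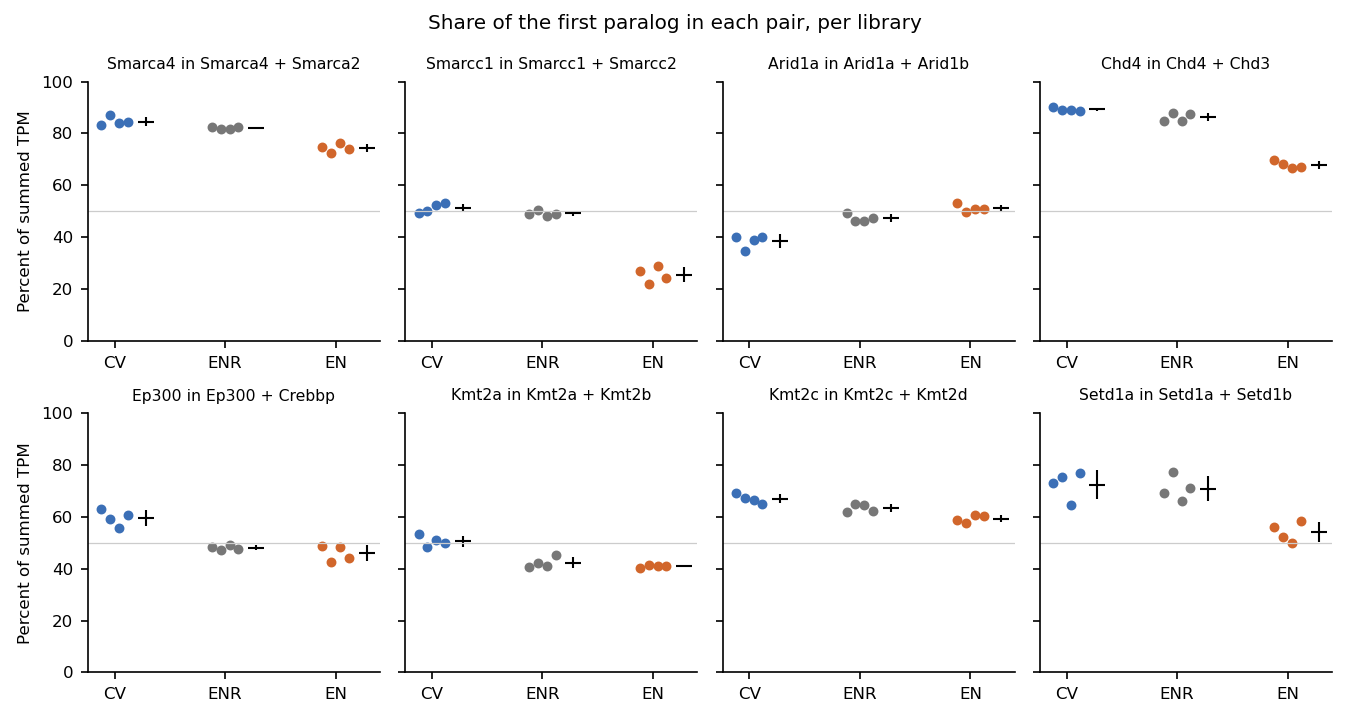
Share of the first-named paralog in the summed TPM of its pair (y axis, percent) in each RNA library (points) of CV, ENR and EN, for 8 pairs. The Smarcc1 share was 49.5 to 53.0% in CV and 22.0 to 28.7% in EN, and the Chd4 share was 88.6 to 90.1% in CV and 66.5 to 69.6% in EN.

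The second question was whether the members' own promoters differed between CV and EN. Values are the authors' normalized read scores of 94469 regions, tested as log2(score + 1) with limma (trend, Benjamini-Hochberg adjusted p under 0.05), and a member promoter is a region within 500 bp of an annotated start site of a protein-coding transcript. This gave 106 regions at 68 of the 69 genes, Chd8 having none, beside 15648 regions at start sites in all. In ATAC, 25 of 105 tested member regions, at 20 genes, were more open in EN and 10 were less open, against 19.6% and 15.6% of all regions and 19.1% and 15.5% of start-site regions. The ATAC split turned to 8 more open and 23 less open after quantile normalization, 16 and 5 were called without limma's trend, and 6 were less open without EN library 3. Of 15630 tested start-site regions, 1556 were more and 3798 less open after quantile normalization, so their split turned too. Without the trend, 2002 and 2028 of them were called. For H3K27ac, a mark of active promoters and enhancers, 31 of 106 regions (29 genes) were higher in EN and 1 was lower, against 5.07% and 1.96% of all regions and 16.9% and 3.73% of start-site regions. The median log2 fold change of H3K27ac was 0.53 over the member regions and 0.19 over start-site regions. These H3K27ac calls rest on how the spread is modelled: 0 were called by limma without a trend (50 had an unadjusted p under 0.05 with it), 8 higher and 3 lower after quantile normalization, and 14 to 31 in all when libraries were left out in turn, with 19, 16 and 14 without EN library 2, 3 and 4. Of 15638 start-site regions, 132 were higher and 122 lower without the trend, and 890 and 934 after quantile normalization. The loss of calls without the trend was thus not particular to the members.

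For H3K4me3, the mark of transcription starts, 9 of 105 regions were higher in EN and 2 lower, against 2.75% and 2.15% of all regions and 4.44% and 5.61% of start-site regions, with medians of 0.41 and 0.06 in log2 units. This count moved from 1 without EN library 2 to 18 without EN library 4, and was 4, 5, 5 and 7 without CV library 2, 3 or 4 and ENR library 1. It was 26 with a mean score of at least 5 required, 7 after quantile normalization (3 higher and 4 lower) and 5 without the trend. With that mean score, 1217 of 12363 start-site regions were higher and 1051 lower. Of 15466 start-site regions, 320 were higher and 1139 lower after quantile normalization, and 270 and 817 without the trend. For the Polycomb mark H3K27me3, 0 of 106 member regions were called in either direction by limma with a trend and 0 without it, 4 had an unadjusted p under 0.05, and the calls over all regions were 0.14% higher and 0.388% lower, or 0.281% and 0.0639% at start sites. Without the trend, 0 of 15648 start-site regions were called too. Leaving out a library gave at most 1 call.

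Promoter marks and RNA, summed over the transcripts of a gene, were set side by side. For each gene and assay, the region with the highest mean score in that assay was taken. The region of a gene can therefore differ between assays. For Smarca2 it was the main start in ATAC (0.42) and an inner start in H3K27ac (-1.77). Of the 39 genes with a region whose RNA rose from CV to EN, 27 were called higher in H3K27ac and 0 lower, with a median log2 fold change of 0.82, and 37 had a value above 0. Over all 2862 genes with a start-site region whose RNA rose, 45.5% were called higher in H3K27ac, 90.1% had a value above 0 and the median was 0.79. For the 22 genes whose RNA fell, the H3K27ac median was 0.05 with 0 called in either direction, against a median of 0.11 with 387 called higher and 228 lower over all 3503 genes whose RNA fell. In H3K4me3 all 39 genes whose RNA rose had a value above 0 (median 0.54, 7 called higher). So did 15 of the 22 whose RNA fell (median 0.24). Over all genes whose RNA rose, 89.1% were above 0 (median 0.37, 12.6% called higher), against 50.9% (median 0.01) where it fell. In ATAC 11 of the 39 genes whose RNA rose were more open and 3 less open, against 30.6% and 7.16% of all such genes, while 4 of the 22 that fell were more open and 6 less open, against 20.9% and 18.2%.

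Across the 68 genes, which are not independent replicates and share libraries, Pearson's r between the log2 fold changes of RNA and promoter was 0.58 for H3K4me3, 0.43 for H3K27ac, 0.40 for ATAC and -0.03 for H3K27me3. Without Uhrf1 and Dnmt1, r over 66 genes was 0.52, 0.36 and 0.15 for the first 3, so that the ATAC value rested on these genes. These are descriptions, with no test.

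**Figure D4:**
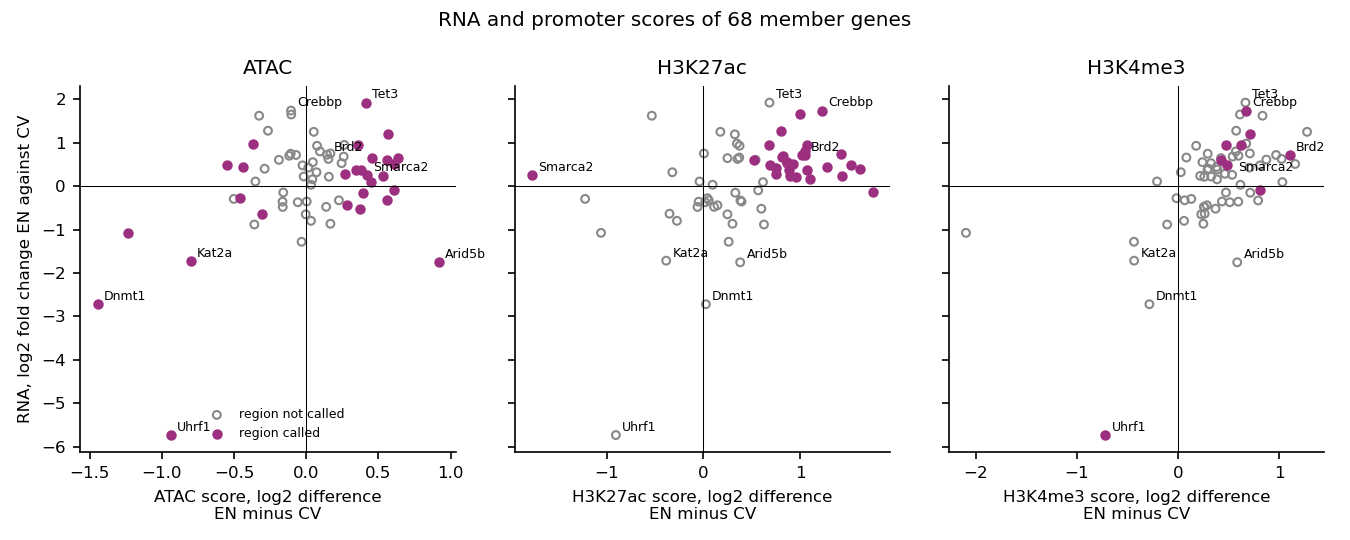
Log2 difference from CV to EN of each gene's promoter region score (x axis) against the log2 fold change of its RNA (y axis) in ATAC, H3K27ac and H3K4me3, for 68 genes (points; filled where the region was called by limma). Of the 39 genes whose RNA rose, 37 lie right of 0 in H3K27ac and 39 in H3K4me3, against 90.1% and 89.1% of all genes whose RNA rose. Of the 22 member genes whose RNA fell, 14 and 15 lie right of 0. The region shown is the highest-scoring one of the gene in each assay, and RNA is summed over a gene's transcripts.

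Region by region, Uhrf1 and Dnmt1 lost openness together with RNA. The Dnmt1 promoter region (chr9:20756007-20757585, mm9), the deepest ATAC fall among member promoters, had scores of 121, 112, 103 and 98 in CV, 92, 103, 74 and 87 in ENR and 39, 28, 38 and 56 in EN. EN lay below all other libraries (log2 fold change -1.45 ± 0.17, limma adjusted p = 2.81e-06), yet its H3K27ac was 49, 19 and 34 in CV, 94, 84 and 113 in ENR and 27, 39 and 32 in EN, where CV and EN overlapped. The Uhrf1 region (chr17:56442587-56444493), chosen like those of Crebbp, Brd2 and Kat2a after the values were seen, had ATAC scores of 109, 109, 100 and 91 in CV, 98, 95, 67 and 84 in ENR and 52, 62, 47 and 51 in EN. Again EN was lowest without overlap (-0.94, limma adjusted p = 2.82e-05). H3K4me3 at Uhrf1 was 74, 87 and 76 in CV, 86, 88 and 83 in ENR and 42, 48 and 53 in EN (-0.72, limma adjusted p = 0.0103), and H3K27ac (-0.90) was not called (limma adjusted p = 0.106). The Kat2a promoter was less open in EN too (-0.80, limma adjusted p = 0.0327).

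At Crebbp (chr16:4212662-4214585), H3K27ac was 138, 64 and 102 in CV, 181, 243 and 178 in ENR and 255, 216 and 212 in EN, and H3K4me3 was 94, 82 and 90 in CV, 127, 123 and 146 in ENR and 150, 166 and 114 in EN. CV was below all ENR and EN libraries in both marks (log2 fold changes from CV to EN 1.22 and 0.67, limma adjusted p = 4.18e-04 and 0.0411), whereas ATAC (-0.11) was not called. Brd2 (chr17:34258664-34259789) had H3K27ac scores of 207, 165 and 172 in CV, 231, 454 and 277 in ENR and 371, 357 and 393 in EN (1.04, limma adjusted p = 1.53e-04). CV was lowest there as it was in Brd2 RNA. The region with the highest H3K27ac rise was a short one at the Ep300 start (chr15:81415301-81415438), with 8, 1 and 8 in CV, 12, 11 and 10 in ENR and 29, 23 and 38 in EN (2.48, limma adjusted p = 0.00534). This call was lost without EN library 4 (2.30) and without the trend, while the long neighbouring Ep300 region gave 0.68 in H3K27ac and 0.62 in H3K4me3.

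The widest ATAC rise by the naming rule was at a Chd6 start (chr2:160877982-160878244), with scores of 12, 8, 5 and 9 in CV, 23, 23, 20 and 19 in ENR and 16, 18, 21 and 18 in EN. CV was apart below both (log2 fold change from CV to EN 1.07, limma adjusted p = 0.00101), while the other Chd6 start gave 0.39 and Chd6 RNA was not called from CV to EN (-0.16). The deepest called H3K4me3 fall was at Smarcd2 (chr11:106128769-106129143), with low scores of 8, 7 and 8 in CV, 7, 6 and 8 in ENR and 2, 1 and 4 in EN. Its call (-1.48, limma adjusted p = 0.0441) was lost in 8 of 9 fits that left out 1 library, whereas the ATAC fall of the same region (-1.23) had a limma adjusted p of 2.33e-04.

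At Arid5b and Smarca2 the regions called for a histone mark lay at starts inside the genes. The inner start of Arid5b (chr10:67598729-67599783) had the largest called H3K4me3 rise, with scores of 7, 10 and 8 in CV, 21, 24 and 22 in ENR and 36, 20 and 41 in EN, and ATAC scores of 35, 30, 21 and 22 in CV, 44, 48, 39 and 37 in ENR and 56, 49, 44 and 55 in EN. CV was lowest in both without overlap with EN (log2 fold changes 1.79 and 0.92, limma adjusted p = 0.00886 and 3.70e-04), although the Arid5b transcript measured fell by 1.76 and its main starts were not called. The inner start of Smarca2 (chr19:26821881-26823067) was the member region whose H3K27ac fell, with 28, 77 and 61 in CV, 52, 75 and 82 in ENR and 22, 16 and 8 in EN. EN was below every other library (-1.77, limma adjusted p = 0.00677), but the call was lost without CV library 4 (-1.48), CV library 5 (-1.64) or EN library 4 (-1.39). The main Smarca2 start was more open in EN by 0.42 in ATAC. Which isoforms these inner starts serve was not analysed here.

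**Figure D5:**
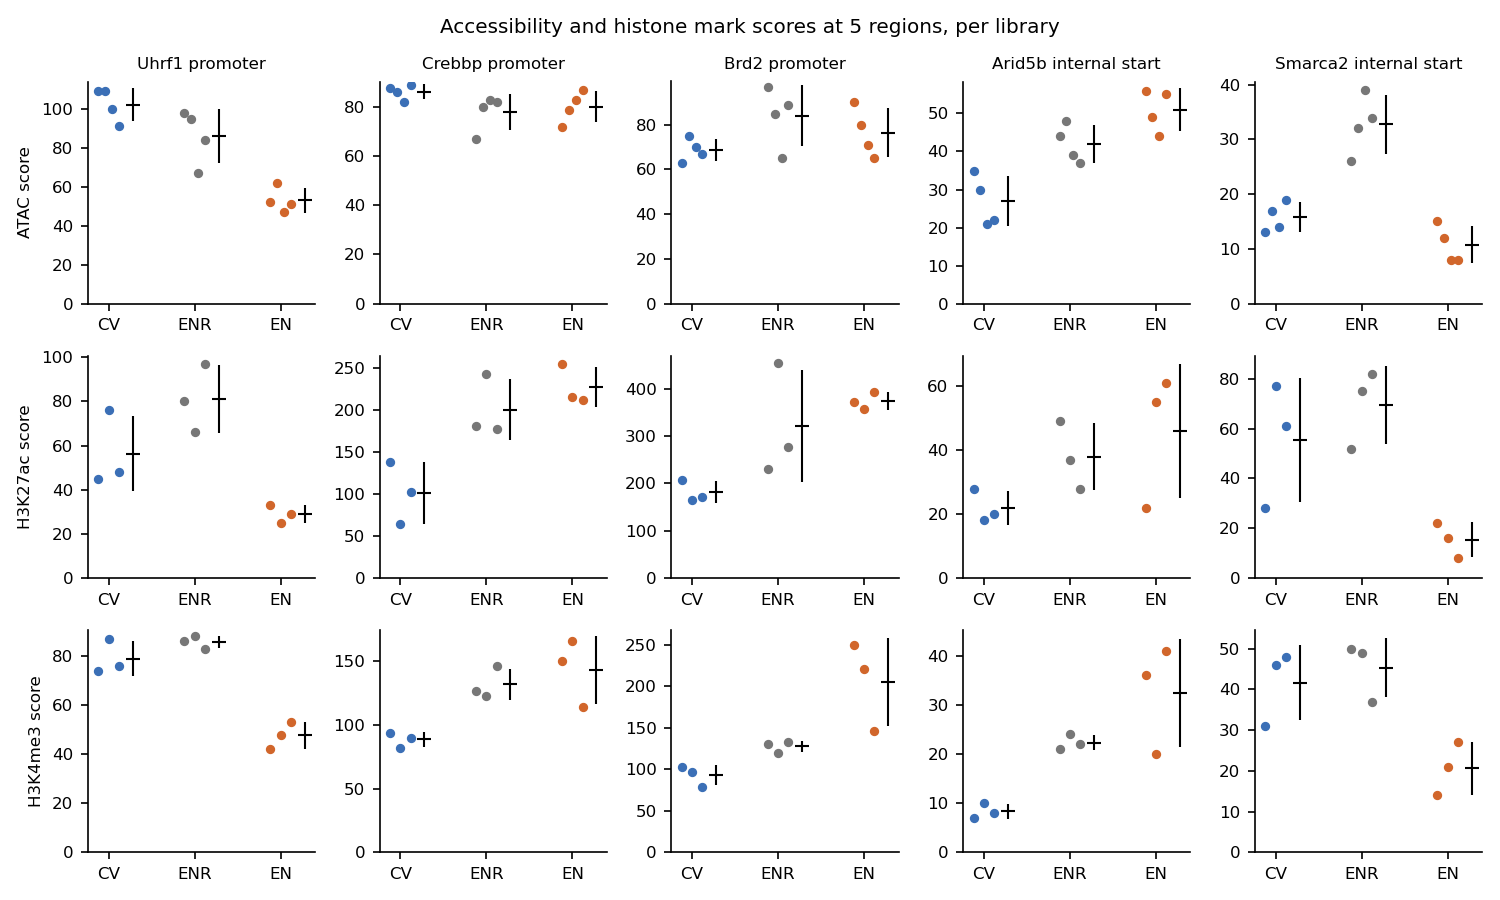
Region scores (y axis, the authors' normalized read scores) in each library (points) of CV, ENR and EN for ATAC, H3K27ac and H3K4me3 at 5 member regions: the Uhrf1, Crebbp and Brd2 promoters and the inner starts of Arid5b and Smarca2. At Uhrf1 the EN libraries have ATAC scores of 47 to 62 against 91 to 109 in CV, and at the Smarca2 inner start H3K27ac is 8 to 22 in EN against 28 to 77 in CV.

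Reads of the transcription factor Hnf4g, which drives enterocyte genes, were counted in the same regions in 1 library per culture, so there is no test. The libraries held 84340 reads in regions for CV, 352600 for ENR and 1816497 for EN. Over the 106 member regions the median rate (CPM of the reads in regions) was 23.7 in CV, 22.7 in ENR and 33.3 in EN, against 0, 14.2 and 20.4 over start-site regions. The CV depth is low, and a few reads set its values. Per gene, the highest EN values were at Kmt2c (193 CPM, against 47.4 in CV and 113 in ENR), Dnmt3a (179, against 462 and 525), Ep300 (170, against 154 and 142) and Brd2 (165, against 94.9 and 210), while Uhrf1 had 21.5 in EN.

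Other chromatin genes outside the naming rule gave a frame for the members. Of 77 tested transcripts of 73 such genes, 28 rose and 30 fell from CV to EN (median log2 fold change 0.12), 12 rose and 39 fell from ENR to EN (-0.39), and 2 rose and 47 fell from ENR to CV (-0.46). Over all tested transcripts the rises and falls were 35.2% and 41.2%, 35.5% and 37.2%, and 30.2% and 29.8% in the same order. The counts from CV to EN are thus near the share of all transcripts. The deepest falls from CV to EN, chosen after the values were seen, were of replication-coupled histone chaperones and their company, such as Chaf1b and Asf1b, with Hells at mean CPM of 81.1 (CV), 148 (ENR) and 9.27 (EN), a log2 fold change of -3.09. Hells is a remodeler needed for DNA methylation, and Suv39h1, an H3K9 methyltransferase, fell by 2.14. Among those that rose were Baz2b (2.14), Mta3 of NuRD (2.10), Brpf3, a partner of Kat7 (1.94), Epc1 of the Kat5 complex (1.52) and Srcap (1.45).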

How the data were processed

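RNA, ATAC and histone mark libraries of the CV, ENR and EN cultures were grouped by their labels. Of 66 samples, 54 had a column in the tables, and 12 were not used here. Per the labels and the methods, reads were assigned to mm9; the submitters' processing notes name kallisto 0.43.0, BWA, Picard, MACS2 2.0 and DESeq2, without roles. The authors deposited estimated counts per transcript from kallisto, made with an index restricted to transcripts with quantified proteins. The deposited TPM and the mRNA copies, which the authors derived with spike-ins, served as other scales. The deposited region scores are the authors' normalized read counts per region as whole numbers, and how they were normalized is not given in the sources used here. The deposited Hnf4g values are read counts per region.

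Estimated counts were rounded, filtered (above 0 in at least 4 libraries), TMM-scaled and fitted with edgeR 4.0.16 (quasi-likelihood, all 12 libraries in 1 fit, R 4.3.3), with calls at an adjusted p of 0.01. Scores were fitted as log2(score + 1) with limma 3.58.1, with a trend, and called at 0.05. On simulated counts with 200 of 9288 transcripts changed 2-fold between CV and EN, 87.0% were found with 2 false calls. These changes were few and evenly up and down, whereas in the data 35.2% of transcripts rose and 41.2% fell. The simulation therefore does not cover the dependence on scaling and gives no error rate for the real calls. Genes given in full were the 2 largest called rises and falls from CV to EN in each role with no overlap, the largest called changes against ENR and a set of key genes, and regions were the largest called rise and fall per assay. One member that counts in the totals is not reported here by itself. The members and lists were chosen with earlier results of these data known. Alternatives were other scalings, filters, DESeq2 1.42.0, replicate blocks and fits without each library. Start sites came from the mm9 gene annotation, and 0 columns lacked a sample.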

Additional observations from a re-analysis of the deposited data

Results flagged for a closer look

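In 11 of 168 groups of 4 libraries, 1 library lay far from the other 3 (the gap to its neighbour over the whole range passed Dixon's 95% limit), and chance alone gives about 1 in 20 such groups. By CPM these were Brd3 in EN library 1 (28.8, the others 25.9 to 26.3), Smarcb1 in CV library 2 (43.0, the others 35.4 to 36.1), Arid4a in EN library 3 (25.3, the others 37.3 to 39.4) and Arid4b in ENR library 3 (49.5, the others 43.7 to 44.6) and in EN library 2 (51.8, the others 47.8 to 48.0). Dnmt1 NM_010066.4 had 62.5 CPM in ENR library 1 against 86.2 to 86.4 CPM in the others, while the sum of both Dnmt1 transcripts was 177 to 185 CPM in all 4 ENR libraries. Chd5 XM_017320245.1 had 0.503 CPM in ENR library 4 and 0.642 CPM in EN library 2, with the other libraries of each culture at 0. Among shares of TPM, Kdm3a made up 89.1% of Kdm3a plus Kdm3b in CV library 3 (others 86.2 to 86.4%), Kdm4c 27.3% of its set in ENR library 4 (25.5 to 25.8%) and Kdm5b 37.0% of its set in CV library 2 (36.2% in each of the others).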

How the results depend on the processing

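Of the values recomputed under the alternatives, 365 counts stayed within 1.5 times the reported one and 73 moved further, and of single genes and regions 2324 kept direction and call, 54 gained a call, 100 lost one and 27 turned direction. From CV to EN, 35 members were called with spike-in scaling (9 higher), 24 higher with limma on log2(TPM + 1), 25 higher with log2(TPM + 0.1) and 6 lower on mRNA copies. From ENR to EN, 1 was higher with spike-ins, 11 with log2(TPM + 0.1) and 44 on mRNA copies, where 5 were lower. Of all transcripts, 11.8% were higher with spike-ins, and on mRNA copies 58.6% were higher and 8.7% lower. From ENR to CV, spike-ins gave 32 calls (1 higher and 31 lower), both TPM fits 7 higher, and mRNA copies 1 call (1 higher and 0 lower). All transcripts gave 11.2% higher and 17.2% lower with spike-ins, and 39.7% higher on log2(TPM + 1). On mRNA copies they gave 14.6% higher and 4.94% lower. Over all members, 10 of the 22 falls from CV to EN kept a negative sign on mRNA copies, 11 of 29 from ENR to EN and 44 of 48 from ENR to CV. Of the rises, 31 of 40 from CV to EN and 7 of 17 from ENR to EN kept a positive sign with spike-ins, and 34 of 40 from CV to EN did on log2(TPM + 1). Among the genes given in full by the naming rule alone, directions that turned on mRNA copies were, from CV to EN, Smarca4 (0.10), Kdm1a (0.43), Kdm1b (0.31) and Setdb1 (0.48); from ENR to EN, Brd3 (0.95), Dnmt3a (0.71), Smarca2 (0.99), Smarca4 (0.21), Kdm1a (0.53), Kdm1b (0.78), Kdm3b (0.93), Setd2 (1.12), Setdb1 (0.16), Arid4a (1.05) and Smarca5 (0.01); and from ENR to CV, Kmt2a (0.03) and Chd3 (0.03), all as log2 fold changes. Among the same genes, with spike-ins Arid4b turned to -0.13 from CV to EN, and from ENR to EN Smarcc2 (-0.20), Ep300 (-0.07), Kdm5b (-0.11), Kdm5c (-0.27) and Kmt2b (-0.17) did. Of them, on TPM, from CV to EN, Kdm5b (-0.28 and -0.29 with a pseudocount of 1 and 0.1) and Arid4b (-0.03 with both) turned. The scalings shift all genes together, by the medians given in the report; which one is nearest to RNA per cell was not tested.

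For promoters, calls in ATAC without the trend were 21 (16 higher and 5 lower) and with quantile normalization 8 higher and 23 lower. In H3K27ac they were 0 in all, higher or lower without the trend, 11 with quantile normalization (8 higher and 3 lower), and 2 lower with a mean score of at least 5. In H3K4me3 they were 5 without the trend (3 higher), 26 with a mean score of at least 5 (22 higher and 4 lower) and 7 with quantile normalization (3 higher and 4 lower). Start-site counts for these alternatives are given with the results above. In H3K27ac, 721 of 12622 start-site regions were lower with a mean score of at least 5. Leaving out each library in turn gave, for RNA members called, 59 to 62 from CV to EN (37 to 40 higher, 21 to 24 lower), 43 to 48 from ENR to EN (16 to 20, 26 to 30) and 45 to 50 from ENR to CV (2 higher, 43 to 48 lower). For regions it gave 27 to 32 in ATAC (20 to 23 higher, 6 to 11 lower), 14 to 31 in H3K27ac (14 to 30, 0 to 1), 1 to 18 in H3K4me3 (1 to 16, 0 to 2) and 0 to 1 in H3K27me3 (0 higher, 0 to 1 lower). Sets of paralogs with a share apart were 13 to 14, 11 and 11 to 12 for CV to EN, ENR to EN and ENR to CV.

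Replicate numbers recur across cultures, but in no assay did every same-numbered pair of libraries deviate together with r over 0.1 (r from -0.06 to 0.10 over 12 pairs in RNA, 0.07 to 0.46 in ATAC, -0.05 to 0.04 in H3K27ac, -0.08 to 0.13 in H3K4me3 and -0.04 to 0.02 in H3K27me3), so they were not taken as pairs. In ATAC, however, all 12 same-numbered pairs had r above 0. Their mean was 0.17, against -0.06 for pairs of other numbers, so same-numbered ATAC libraries may be linked. The main ATAC fit ignores such a link. In the other assays the mean r of same-numbered pairs was -0.01 to 0.05. With the replicate number as a block, RNA calls were 61, 46 and 48 in the 3 comparisons, ATAC had 35 and H3K27me3 0 calls, H3K27ac had 0 calls (0 higher and 0 lower) and H3K4me3 had 0 (0 higher and 0 lower). Over start-site regions the block gave 0 calls in H3K27ac too. It gave 79 higher and 169 lower of 15466 in H3K4me3, and 3161 and 2575 of 15630 in ATAC. Depth limits the low members, Chd5 and Uhrf1 in EN, and the region scores in single digits.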
